A study of Rattus norvegicus with 4 samples.

Results

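The heat shock and DnaJ chaperone genes are the genes whose symbols begin with Hspa, Hspb, Hspd, Hspe, Hsph or Hsp90, or with Dnaja, Dnajb or Dnajc. They were chosen by symbol alone, and 72 of the 30560 listed genes met the rule: 11 of the Hsp70 family, 3 of the Hsp90 family, 2 of the Hsp110 and nucleotide exchange group, 2 of the mitochondrial chaperonin, 9 grouped by symbol with the small heat shock proteins, 4 DnaJA, 13 DnaJB and 28 DnaJC genes. The symbols of the inducible Hsp70 genes, Hspa1a and Hspa1b, were not among the listed genes, so these genes are not described. Levels of the 72 genes were measured in single nuclei of the rat nucleus accumbens, a ventral striatal region that takes part in reward learning. Sprague-Dawley rats aged 90 to 120 days received daily intraperitoneal saline, or cocaine at 20 mg/kg, for 7 days, and tissue was taken 1 h after the last injection. A 2 mm punch centred on the core was taken, and the nuclei of 4 rats of 1 sex and treatment were pooled into each library, so that there were 2 saline libraries (female, male) and 2 cocaine libraries (female, male). The library is the replicate (n = 2 per treatment), each library pools its rats, and treatment was compared with sex as a covariate.

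Hsp70 proteins bind unfolded stretches of other proteins in a cycle driven by ATP. A DnaJ protein (also called Hsp40) delivers the client and triggers ATP hydrolysis, a nucleotide exchange factor such as the Hsp110 protein Hsph1 resets the cycle, and Hsp90 takes over clients such as kinases and steroid receptors at a later stage. In neurons, Hspa8 with the DnaJ proteins Dnajc6 (auxilin) and Dnajc5 (cysteine string protein) serves clathrin uncoating and synaptic vesicle proteins, Hspa5 and Hsp90b1 fold proteins in the endoplasmic reticulum (ER), and Hspd1 with Hspe1 forms the mitochondrial chaperonin. Heat shock factor 1 drives many of the cytosolic members through heat shock elements in their promoters.

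The libraries held 6213 to 7265 nuclei and 31484217 to 40737786 unique molecular identifiers (UMIs, one per captured RNA molecule). Markers that hold none of the 72 genes placed 20252 nuclei in one cell class, and 9 classes, each filled by 25 or more nuclei of every library, were compared: D1 and D2 medium spiny neurons (D1-MSN, D2-MSN), Grm8 MSN, Sst interneurons, glutamatergic neurons, astrocytes, oligodendrocytes, oligodendrocyte precursors (OPC) and microglia. The names stand for marker gates, not for an annotation by the authors. The 10 genes that led each tested class by fold held at least 2 of its own markers and 0 of any other class. The nuclei were gated on these same markers, so that count is no independent test of the names. D1-MSN nuclei had median depths of 6851 to 10180 UMIs and oligodendrocyte nuclei of 1531 to 2023. Library pairs shared 10 to 18 barcodes. Glutamatergic nuclei numbered 34 and 29 in the saline libraries and 160 and 88 in the cocaine libraries, which touches values over all nuclei.

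Of the 72 genes, 67 had at least 10 UMIs over all libraries. The other 5 were Dnajc5g, Hspb3, Hspb7, Hspb9 and Dnajb8, and Dnajb8 had 0 of 145743164 UMIs, which allows up to 0.0206 CPM (counts scaled to 1000000 UMIs). Hspb1, a small heat shock protein known for its induction by stress, had 13 UMIs in all. In a test of each class against the mean of the other 8 classes, 60 members passed the count filter, and 59 of them differed in at least 1 class (edgeR, adjusted p under 0.05); the exception was Hspa14. For genes of all kinds these calls were common, and the share of them called in at least 1 class was not counted. In oligodendrocytes alone, 39.4% of 13139 genes were called higher and 32.5% lower. The counts were taken at unequal depth. With every sum thinned to 204189 UMIs, the members called in either direction fell from 44 to 18 in oligodendrocytes, from 36 to 8 in D1-MSN and from 32 to 21 in microglia. The summed level of all 72 genes was 31.5 to 35.4 UMIs per 10000 in oligodendrocytes and 32.9 to 37.4 in microglia, and 26.5 to 28.5 in D1-MSN and 23.1 to 25.1 in OPC.

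At full depth, oligodendrocytes had the longest list of members above the other classes: 32 of 60 were called higher and 12 lower (at equal depth microglia had more calls), and their median log2 difference was 0.25 against 0.04 over all genes tested. Dnajb2, a DnaJ protein that passes ubiquitinated clients to the proteasome, stood at 308 and 279 CPM in the female and male saline libraries and at 255 and 243 CPM in the cocaine libraries. The same gene stood at 20.0 to 27.2 CPM in D1-MSN. Its log2 difference from the other classes was 3.45 (SE 0.07; edgeR adjusted p = 7.37e-38), and every oligodendrocyte library lay above every library of D1-MSN. All CPM values in the comparison of classes are scaled across the classes and are not corrected for transcript length.

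The cytosolic Hsp90 genes had their highest class mean in oligodendrocytes too. Hsp90aa1, the stress-inducible Hsp90, averaged 141 ± 25.9 CPM (SD, n = 4 libraries) there and 48.1 ± 2.57 CPM in D1-MSN, with a log2 difference from the other classes of 1.74 (SE 0.06; edgeR adjusted p = 1.89e-27). Hsp90ab1, the constitutive Hsp90, averaged 162 ± 16.2 CPM in oligodendrocytes (log2 difference 1.12, SE 0.06). Hspa8, the constitutive Hsp70, averaged 70.2 ± 7.75 CPM (log2 difference 1.10, SE 0.08). Dnajb12, a DnaJ protein of the ER membrane, differed by 1.72 (SE 0.10), the mitochondrial Dnaja3 by 1.06 (SE 0.06) and the inducible Dnajb1 by 1.13 (SE 0.22), the last at only 8.35 ± 1.80 CPM. By role, all 3 Hsp90 genes, 8 of 10 tested DnaJB genes and both subunits of the mitochondrial chaperonin were called higher. Dnajc15, a DnaJ protein of the mitochondrial inner membrane, was called lower (log2 difference -1.44, SE 0.10), at 24.4 ± 4.71 CPM.

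In D1-MSN and D2-MSN, Hspa12a, Hspa4l and Hsph1 had the largest differences above the other classes among members averaging over 100 CPM there. Hspa12a, a divergent Hsp70 relative, stood at 168 and 146 CPM in D1-MSN of the female and male saline libraries and at 151 and 125 CPM in the cocaine libraries. In OPC it stood at 8.71 and 7.94 CPM in saline and at 12.7 and 4.75 CPM in cocaine. It differed from the other classes by a log2 of 1.64 (SE 0.08) in D1-MSN, 1.58 (SE 0.08) in D2-MSN and -2.83 (SE 0.26) in OPC, and all 9 classes were called for it. Hspa12a was not particular to D1-MSN and D2-MSN. Its log2 difference was 1.70 (SE 0.12) in glutamatergic neurons, 1.66 (SE 0.10) in Grm8 MSN and 0.85 (SE 0.20) in Sst interneurons. Hspa4l, an Hsp110-type exchange factor, was higher by 1.39 (SE 0.07) in D1-MSN and 1.35 (SE 0.07) in D2-MSN, and lower by -2.82 (SE 0.28) in microglia. Hsph1 averaged 150 ± 15.9 CPM in D1-MSN (log2 difference 0.75, SE 0.08) and 46.9 ± 10.0 CPM in astrocytes (log2 difference -1.05, SE 0.13). In D1-MSN 19 members were called higher and 17 lower, against 33.2% and 27.2% of all genes, and in D2-MSN 18 and 16, against 33.1% and 27.5%.

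Among members detected in every class, Dnajc6 had the widest range of class means, 38.9-fold from the lowest to the highest, and Dnajc13, an endosomal DnaJ protein, the narrowest, 1.20-fold. Glutamatergic neurons held 551 and 504 CPM in the female and male saline libraries and 508 and 525 CPM in the cocaine libraries. Astrocytes held 12.1 and 19.2 CPM in saline and 16.1 and 6.21 CPM in cocaine, and their log2 difference from the other classes was -3.96 (SE 0.15; edgeR adjusted p = 1.18e-26). Oligodendrocytes, at 343 ± 12.3 CPM, lay above D1-MSN at 230 ± 3.25 CPM for this gene. Dnajc5 followed another order, with 151 ± 12.1 CPM in D1-MSN and a log2 difference of 0.44 (SE 0.06). The difference was 0.39 (SE 0.06) in D2-MSN and 0.44 (SE 0.11) in microglia, and glutamatergic neurons were not called for Dnajc5 (0.07, SE 0.09). In glutamatergic neurons 11 members were called higher and 12 lower, against 26.2% and 18.0% of all genes, and Dnajb5 was among the higher ones (log2 difference 1.54, SE 0.14). In Sst interneurons, with as few as 29 nuclei in a library, 5 members were called higher and 6 lower, against 17.9% and 13.1%. Dnajc12, a partner of the aromatic amino acid hydroxylases, was among the higher (log2 difference 1.13, SE 0.33), at 20.6 ± 3.20 CPM. The ER protein Dnajb11 was among the lower (log2 difference -1.21, SE 0.27), at 16.8 ± 6.07 CPM. In Grm8 MSN 11 were called higher and 16 lower, against 27.0% and 18.3%.

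Among the ER chaperones, Hspa5, Hsp90b1 and Dnajc3 were highest in microglia, followed by OPC, while other ER members had other orders. Dnajb9 was also highest in microglia (20.8 ± 9.52 CPM, log2 difference 0.96, SE 0.29), but followed by oligodendrocytes at 19.3 ± 5.00 CPM. Hspa5 stood at 104 and 136 CPM in microglia of the female and male saline libraries and at 96.1 and 144 CPM in the cocaine libraries, and averaged 42.0 ± 5.67 CPM in D1-MSN. Its log2 difference from the other classes was 1.36 (SE 0.12) in microglia and 0.96 (SE 0.10) in OPC, and -0.55 (SE 0.07) in D1-MSN. Hsp90b1 followed with 1.30 (SE 0.12) in microglia and 0.66 (SE 0.11) in OPC, and Dnajc3, an ER DnaJ partner of Hspa5, with 1.29 (SE 0.23) and 0.88 (SE 0.19). Dnajc10, an ER DnaJ protein with disulfide reductase activity, was instead lower in microglia (-0.70, SE 0.19) and higher in oligodendrocytes (0.62, SE 0.08). Dnajb11, another ER partner of Hspa5, was higher in OPC (0.78, SE 0.14) and in microglia (0.63, SE 0.18), and Dnajc1 had its highest class mean in D1-MSN. Microglia also held Dnajb6, a DnaJ protein known to hold back polyglutamine aggregation, at 257 ± 14.4 CPM (log2 difference 1.55, SE 0.09), and Dnajc22 at 14.0 ± 4.92 CPM, a gene that averaged 0.748 CPM or less in every other tested class. In microglia 18 members were called higher and 14 lower, against 27.2% and 28.0% of all genes, and in OPC 8 and 18, against 25.6% and 20.0%. All 4 DnaJA genes, the broad cytosolic and mitochondrial partners of Hsp70, were among those lower in OPC, with log2 differences from -0.74 for Dnaja4 to -0.27 for Dnaja2.

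In astrocytes 3 of the 5 tested genes of the small heat shock group were called higher and 1 was called lower. The lower one was Hspb2 (log2 difference -2.69, SE 0.55), at only 0.675 ± 0.606 CPM. Hspb8, which works with Bag3 in the clearance of misfolded protein, had 10.3 and 8.85 CPM in the female and male saline libraries and 11.8 and 7.77 CPM in the cocaine libraries, and was at 0 CPM in all 4 D1-MSN libraries. Hspb6 averaged 7.76 ± 1.83 CPM (log2 difference 1.54, SE 0.32), and Hspb11, which carries a heat shock symbol but serves intraflagellar transport, 58.4 ± 6.39 CPM (log2 difference 1.35, SE 0.10). Over all groups 15 members were called higher in astrocytes and 16 lower, against 33.4% and 28.4% of all genes. Glial nuclei were shallower than neuronal nuclei, and the part of free RNA in the lowest class levels was not tested.

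D1-MSN and D2-MSN are told apart by their dopamine receptors. Of 61 members tested between them, 2 were called higher and 1 lower in D1-MSN, where 7.83% of 12951 genes were called higher and 6.72% lower. Dnajc1 (log2 difference 0.16, SE 0.04) and Dnajc2 (0.17, SE 0.05) were higher in D1-MSN and Dnajc13 (-0.21, SE 0.04) was lower, with edgeR adjusted p-values of 0.00833, 0.0400 and 0.000901 (14.5% of all genes were called in either direction). Dnajc1 is a DnaJ protein of the ER membrane and Dnajc2 binds the ribosome. Dnajc13 stayed called without any single library. The call of Dnajc1 was lost without either cocaine library (edgeR adjusted p = 0.0683 and 0.102), and that of Dnajc2 without the female saline (0.201), female cocaine (0.119) or male saline library (0.108).

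After cocaine, the summed level of the 72 genes was slightly higher in most classes. In D1-MSN it was 26.5 and 26.9 UMIs per 10000 in the female and male saline libraries and 28.0 and 28.5 in the cocaine libraries, 5.75% higher in the mean. In oligodendrocytes it was 32.2 and 31.5 in saline and 34.4 and 35.4 in cocaine, 9.56% higher. Both cocaine libraries lay above both saline libraries in 8 of 9 classes, the glutamatergic neurons being the exception. This held in 8 of 8 classes with the stricter gate, in 9 of 9 with nuclei in 2 gates kept and in 7 of 8 with the top nuclei by UMIs left out, when Sst interneurons overlapped. Over all nuclei the sums were 28.4 and 27.5 against 29.0 and 29.4. The classes come from the same 4 libraries and are not independent, and an exact permutation test of 2 against 2 libraries cannot go below p = 0.33. By role, both cocaine libraries were above both saline libraries for the DnaJA sum in 7 classes and for the mitochondrial chaperonin in 6. The same held for Hsp70 and Hsp90 in 5 each, and for DnaJC and for Hsp110 and nucleotide exchange in 4 each. It held for DnaJB in 1 and for the small heat shock group in 0. That last sum was led by Hspbap1 and Hspb11, with 6018 and 3810 UMIs over all libraries. No other gene of the group had more than 754 UMIs. Both cocaine libraries were below both saline libraries for the Hsp70 sum in 1 class and for the small heat shock sum in 1. The Hsp70 sum also holds Hspa4 and the Hsp110-type exchange factor Hspa4l, with 16379 and 11029 UMIs over all libraries.

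**Figure D1:**
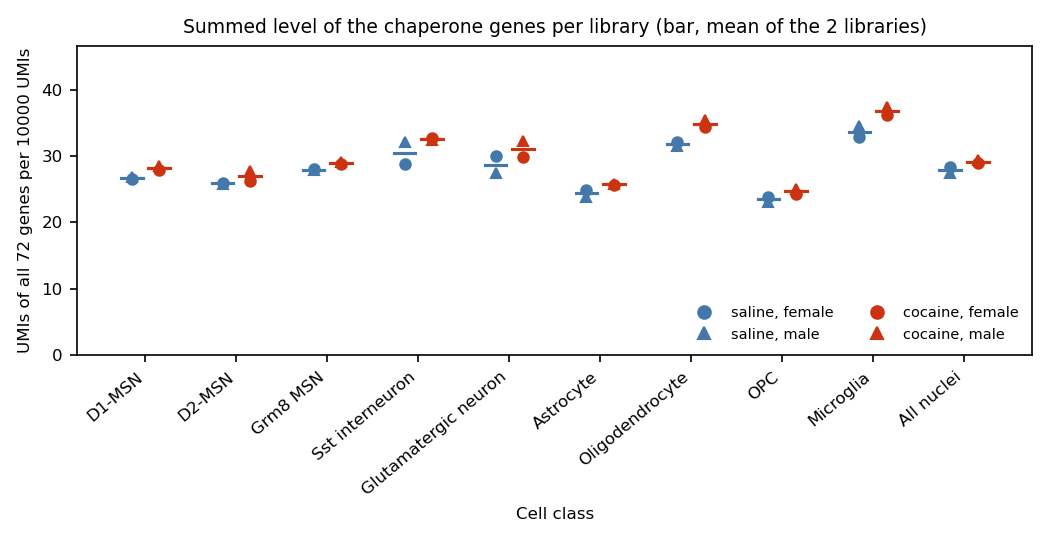
UMIs of all 72 genes per 10000 UMIs (y axis) in each class and over all nuclei (x axis); points are libraries, circles female and triangles male, and bars are means of the 2 libraries of a treatment. In D1-MSN the saline libraries lie at 26.5 and 26.9 and the cocaine libraries at 28.0 and 28.5.

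Gene by gene, members passed the test for treatment in D2-MSN nuclei: 4 of 61 tested, 3 higher and 1 lower, where 1.1% of 12961 genes were called (edgeR, adjusted p under 0.05). The reference for the drug's effect, the immediate-early gene Nr4a3, stood there at 29.9 and 21.7 CPM in the saline libraries and at 70.7 and 61.4 CPM in the cocaine libraries (log2 fold change 1.36, SE 0.11). The median log2 fold change of the 61 members was 0.01, against 0.00 over all genes. Both cocaine libraries lay above both saline libraries for 13 members and below them for 9, against 16.7% of all genes in each direction. From here on CPM values are scaled within a class.

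Hspe1, the small subunit of the mitochondrial chaperonin, had 11.3 and 14.7 CPM in D2-MSN of the female and male saline libraries and 18.1 and 20.8 CPM in the cocaine libraries. Its log2 fold change was 0.58 (SE 0.16; edgeR adjusted p = 0.0230), and the groups did not overlap. Its partner Hspd1, the large subunit, stood at 20.8 and 20.4 CPM in saline and 21.8 and 21.6 CPM in cocaine, with a log2 fold change of 0.07 (SE 0.14; edgeR adjusted p = 0.925).

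Hsph1, the exchange factor, had 118 and 106 CPM in saline and 132 and 139 CPM in cocaine (log2 fold change 0.28, SE 0.08; edgeR adjusted p = 0.0397). Hsp90ab1 had 53.0 and 59.5 CPM in saline and 63.1 and 78.7 CPM in cocaine (log2 fold change 0.33, SE 0.09; edgeR adjusted p = 0.0410). For both genes the groups did not overlap. Hspa12a went the other way, with 149 and 120 CPM in saline and 118 and 97.1 CPM in cocaine (log2 fold change -0.32, SE 0.08; edgeR adjusted p = 0.00914). Its male saline value and female cocaine value, 120 and 118 CPM, almost met. Hspa8, the central cytosolic Hsp70, had 26.7 and 27.6 CPM in saline and 23.0 and 26.2 CPM in cocaine and did not pass (log2 fold change -0.14, SE 0.13; edgeR adjusted p = 0.765).

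These 4 calls rest on the spread shared by all genes, since edgeR found no gene-specific spread beyond the trend in D2-MSN, nor in astrocytes, OPC and Sst interneurons. All 4 were lost with DESeq2, without the sex covariate, with nuclei that met 2 gates kept and without any 1 library; the direction held in every case. Of 11 alternatives, Hspe1 and Hspa12a were called in 4 each, Hsp90ab1 in 2 and Hsph1 in 1. The 4 libraries leave 1 residual degree of freedom. Oligodendrocyte markers in D2-MSN nuclei summed to 177 and 139 CPM in the saline libraries and 175 and 150 CPM in the cocaine libraries, all 8 markers being detected, and the groups overlapped. Of 11 marker lists of other cell types, 4 were higher in both cocaine libraries of D2-MSN than in both saline libraries and 0 were lower. These were the D1-MSN (15.3 and 23.1 CPM in saline, 23.4 and 32.0 CPM in cocaine), OPC (9.23 and 13.7 against 15.6 and 14.2 CPM), vascular (1.15 and 2.29 against 3.05 and 3.12 CPM) and cholinergic lists (under 1 CPM throughout). Their part in the calls was not tested.

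In D1-MSN no member was called among 61 tested, and 0.0607% of 13170 genes were called by edgeR (DESeq2 called no member either). Hsp90ab1 had 56.1 and 60.3 CPM in saline and 66.7 and 77.6 CPM in cocaine (log2 fold change 0.31, SE 0.09; edgeR adjusted p = 0.420). Dnaja1, a main DnaJ partner of cytosolic Hsp70, had 66.0 and 62.3 CPM in saline and 86.0 and 72.7 CPM in cocaine (log2 fold change 0.30, SE 0.09; edgeR adjusted p = 0.431). Hsph1 had 124 and 113 CPM in saline and 146 and 130 CPM in cocaine (log2 fold change 0.22, SE 0.07; edgeR adjusted p = 0.491). In each of the 3 genes both cocaine values lay above both saline values, as they did for Dnajc17 (log2 fold change 0.29) and the synaptic vesicle chaperone Dnajc5 (0.21). In the same nuclei 5 of 11 marker lists of other cell types were higher in both cocaine libraries and 3 were lower. D2-MSN markers summed to 18.8 and 28.8 CPM in saline and to 31.5 and 45.5 CPM in cocaine, and astrocyte markers to 31.3 and 19.5 against 34.4 and 35.8 CPM; their part in these values was not tested. Hspe1 had 15.2 and 17.4 CPM in saline and 18.3 and 19.8 CPM in cocaine (log2 fold change 0.23, SE 0.13), and Hspa12a had a log2 fold change of -0.17 (SE 0.07; edgeR adjusted p = 0.601). Both cocaine libraries lay above both saline libraries for 13 of the 61, or 21.3%, against 16.9% of all genes, and below them for 8, against 16.6%.

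The test of whether the cocaine effect differed between D2-MSN and D1-MSN called none of the members, and 0.0372% of all genes. The tests of oligodendrocytes and of astrocytes against D1-MSN called none either, with 0.00739% and 0.00734% of all genes called; the only unadjusted p under 0.02 among members in the 3 tests was 0.00531, for Dnajb2 in astrocytes. No difference in the response between MSN types was therefore shown for Hspe1, Hsph1, Hsp90ab1 or Hspa12a.

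**Figure D2:**
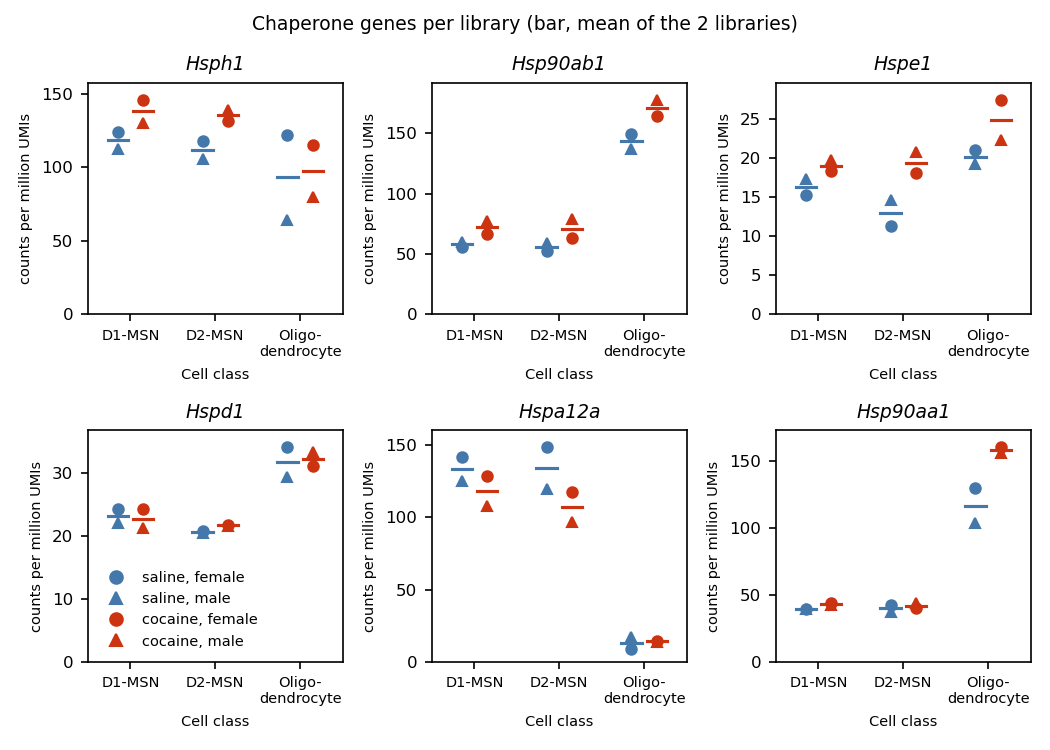
CPM (y axis, from 0) of 6 members in D1-MSN, D2-MSN and oligodendrocytes; points are libraries, circles female and triangles male, and bars are means of the 2 libraries of a treatment. In D2-MSN, Hspe1 lies at 11.3 and 14.7 CPM in saline and at 18.1 and 20.8 CPM in cocaine, and Hspd1 between 20.4 and 21.8 CPM in all 4 libraries.

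Dnaja1 was the member whose cocaine libraries most often lay above the saline libraries: this held in all 9 classes. It was chosen for description after its values were seen. Of 4160 genes tested in all 9 classes it was the only one, so that 0.024% had this pattern. In D2-MSN it had 58.0 and 59.5 CPM in saline and 74.0 and 69.3 CPM in cocaine (log2 fold change 0.29, SE 0.09; edgeR adjusted p = 0.106). In microglia it had 121 and 95.0 CPM in saline and 169 and 160 CPM in cocaine (log2 fold change 0.58, SE 0.23), and in oligodendrocytes 71.6 and 46.7 CPM in saline and 81.8 and 81.1 CPM in cocaine (log2 fold change 0.44, SE 0.14). The smallest difference was in astrocytes, with 65.3 and 53.8 CPM in saline and 67.3 and 66.8 CPM in cocaine (log2 fold change 0.16, SE 0.18). The largest was in Sst interneurons (log2 fold change 0.78, SE 0.32), where the female saline value rested on 10 UMIs. In no class did Dnaja1 pass the adjusted threshold by the main test. The fold changes stayed above 0 in each class under every alternative, from 0.04 in astrocytes to 1.30 in Sst interneurons. Without the female saline library the log2 fold change was 0.80 in oligodendrocytes and 0.37 in Sst interneurons.

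**Figure D3:**
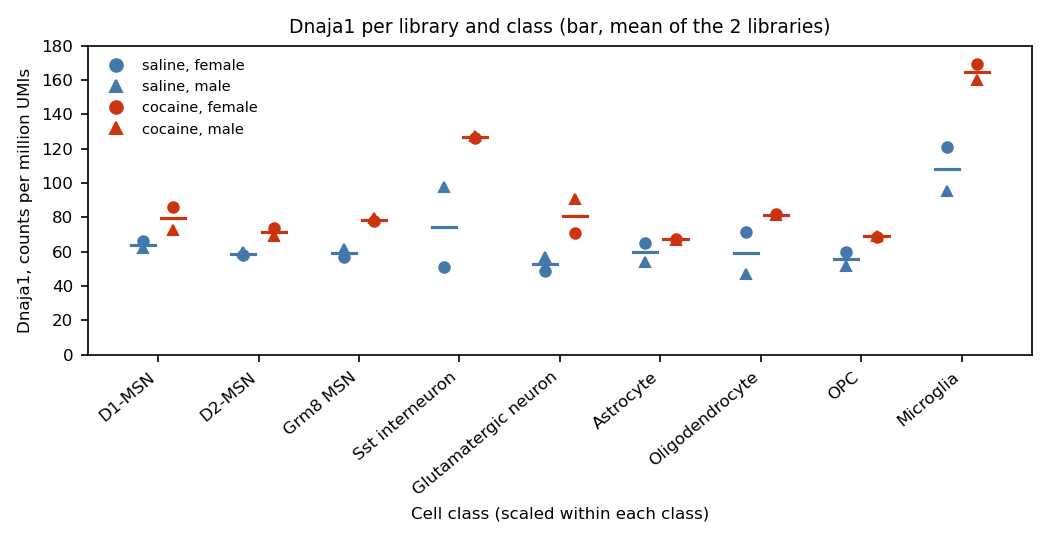
Dnaja1 in CPM (y axis, from 0), scaled within each class (x axis); points are libraries, circles female and triangles male, and bars are means of the 2 libraries of a treatment. Both cocaine libraries lie above both saline libraries in every class, by the least in astrocytes (65.3 and 53.8 against 67.3 and 66.8 CPM).

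Over all nuclei, which needs no gate, 0 of 66 members tested were called by edgeR or by DESeq2, and edgeR called 0.342% of 16661 genes. Dnaja1 had 62.7 and 61.1 CPM in saline and 80.4 and 74.6 CPM in cocaine (log2 fold change 0.32, SE 0.06; edgeR adjusted p = 0.0810). Hspe1 had 15.9 and 17.2 CPM in saline and 21.1 and 22.6 CPM in cocaine (log2 fold change 0.40, SE 0.08; edgeR adjusted p = 0.0890). Both passed, with edgeR adjusted p-values of 0.0250 and 0.0272, when no genes were filtered for low counts. With that setting 325 genes of all kinds were called, against 57 in the main test. Hsph1 (log2 fold change 0.25, SE 0.06) and Hsp90ab1 (0.28, SE 0.07) followed, with edgeR adjusted p-values of 0.141 and 0.148. Both cocaine libraries lay above both saline libraries for 17 of the 66 members, or 25.8%, against 17.3% of all genes, and below them for 5, against 16.7%.

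The promoters of these leading genes are shown because 3 of them carry the letters of a heat shock element. The sequences are from RefSeq (build GRCr8, not the rn7 build of the counts), which gave a window from 250 bases before to 50 bases after the annotated start for 58 of the 72 members. A triple heat shock element was searched as GAA, 2 bases of any kind, TTC, 2 bases of any kind and GAA, and on the other strand as TTC, 2 bases, GAA, 2 bases and TTC. It was found in 5 of the 58 member windows (8.62%) and in 0.798% of 33469 promoters. The 5 were Dnaja1, Hsph1, Hspe1, Hspd1 and Hspa8; in the windows below, printed 5′ to 3′ on the gene's strand, capitals mark the matches.
Dnaja1 (chr5:60638373-60638433, plus strand): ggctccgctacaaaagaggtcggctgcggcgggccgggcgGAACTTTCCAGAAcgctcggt
Hsph1 (chr12:10427292-10427384, plus strand): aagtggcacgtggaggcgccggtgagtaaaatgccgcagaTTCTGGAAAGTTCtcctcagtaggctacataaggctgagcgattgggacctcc
Hspe1 (chr9:64084222-64084319, plus strand): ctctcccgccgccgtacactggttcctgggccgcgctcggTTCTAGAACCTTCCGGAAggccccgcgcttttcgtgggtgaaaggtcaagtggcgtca
Hspd1 (chr9:64084222-64084287, minus strand): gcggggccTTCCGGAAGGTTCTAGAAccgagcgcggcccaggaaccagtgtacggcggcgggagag

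The match of Dnaja1 lies just after its annotated start and that of Hsph1 36 bases before its start. Hspe1 and Hspd1 are divergent neighbours whose windows overlap, and the same stretch with 2 overlapping matches stands in both, read from opposite strands. Of this pair, Hspe1 was the member higher after cocaine in D2-MSN and Hspd1 was not called, as given above. Hspa8, with 2 matches, had 24.0 and 29.5 CPM in saline and 26.6 and 31.3 CPM in cocaine in D1-MSN, where the groups overlapped. The window of Hsp90ab1 held no match to these letters, and Hspa12a was not among the 58. A match is a likeness of letters and no measurement of binding.

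The promoters of Hspa5, Hsp90b1 and Dnajc3 are described because these ER members were highest in microglia and hold the letters of another element. Dnajb9, an ER partner of Hspa5, was highest in microglia too, and its window held no match. The windows of Dnajb11, another ER partner of Hspa5, and of Hspa13, a microsomal Hsp70, held none either. The ER stress element was searched as CCAAT, 9 bases of any kind and CCACG, and on the other strand as CGTGG, 9 bases and ATTGG. No member window held both motifs. The ER element was found in 3 of the 58 member windows (5.17%; Hspa5, Hsp90b1 and Dnajc3) and in 0.0657% of all promoters.
Hspa5 (chr3:38452933-38453031, plus strand): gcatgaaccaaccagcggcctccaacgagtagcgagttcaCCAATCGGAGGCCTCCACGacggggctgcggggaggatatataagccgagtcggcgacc
Dnajc3 (chr15:102432494-102432592, plus strand): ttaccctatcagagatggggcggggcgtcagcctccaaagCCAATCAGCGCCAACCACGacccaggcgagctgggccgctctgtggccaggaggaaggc
After cocaine none of the 3 was called in a tested class. Hspa5 had 31.2 and 28.1 CPM in D2-MSN of the saline libraries and 29.7 and 34.0 CPM in the cocaine libraries, and Hsp90b1 had 50.0 and 45.8 CPM in saline and 36.7 and 48.7 CPM in cocaine; in both genes the groups overlapped.

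In oligodendrocytes no member was called among 56 tested by edgeR or by DESeq2, and edgeR called 0.196% of 11213 genes. Hsp90aa1 had the smallest p, with 130 and 104 CPM in saline and 160 and 156 CPM in cocaine (log2 fold change 0.43, SE 0.11; edgeR adjusted p = 0.189). It was called with a stricter gate (edgeR adjusted p = 0.0441) and without the low-count filter (0.0148). Those settings called 84 and 240 genes of all kinds, against 22 in the main test. The cytosolic DnaJ gene Dnaja4 had 14.2 and 15.1 CPM in saline and 23.6 and 21.3 CPM in cocaine (log2 fold change 0.63, SE 0.20; edgeR adjusted p = 0.327). Dnajb2, the member that marked this class, had 290 and 271 CPM in saline and 249 and 240 CPM in cocaine (log2 fold change -0.20, SE 0.09; edgeR adjusted p = 0.471). None of these groups overlapped. Both cocaine libraries lay above both saline libraries for 11 members, or 19.6%, against 18.4% of all genes, and below for 8, against 16.2%. General neuron markers in oligodendrocyte nuclei summed to 195 and 223 CPM in the saline libraries and to 342 and 310 CPM in the cocaine libraries, all 5 markers being detected. Of 14 lists of other cell types, 4 were higher in both cocaine libraries and 1 was lower; their part in these values was not tested.

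The remaining classes had no member called either. In astrocytes 0 of 53 members were called, where 1.33% of 10587 genes were. Hsp90ab1 had 63.4 and 64.4 CPM in saline and 78.3 and 80.5 CPM in cocaine (log2 fold change 0.31, SE 0.17, edgeR adjusted p = 0.630). In Grm8 MSN 0 of 53 were called, in OPC 0 of 44 and in Sst interneurons 0 of 27. The shares of all genes called there by edgeR were 0.00934%, 0.206% and 0.698%. In microglia 0 of 38 and in glutamatergic neurons 0 of 44 were called, and 0.0% of all genes were. DESeq2 called no member in any of these classes.

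**Figure D4:**
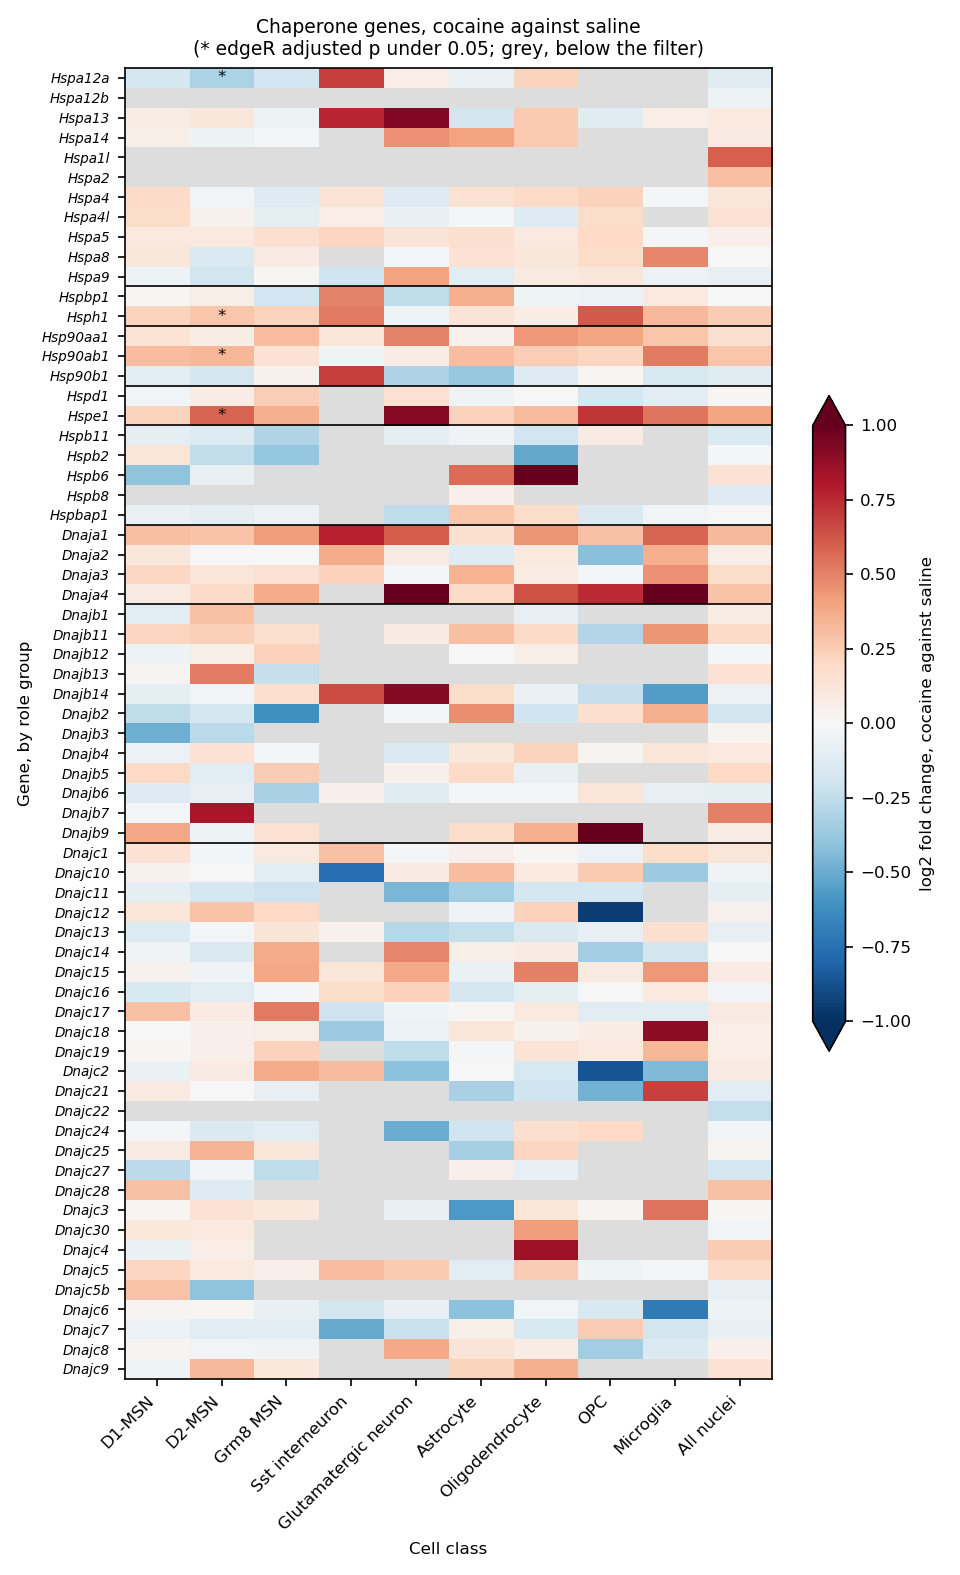
Log2 fold change after cocaine of each member (rows, in blocks from the Hsp70 family at the top to DnaJC at the bottom) in each class and over all nuclei (columns); the colour scale ends at 1 and -1, grey is below the count filter, and the 4 stars mark an edgeR adjusted p under 0.05, all in D2-MSN. The Dnaja1 row is above 0 in every column.

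Genes that work with the chaperones were read from lists of partners. The CCT chaperonin, the cytosolic ring that folds actin and tubulin, had 0 of 8 members called in every class named here, but 8 of 8 had fold changes above 0 in D1-MSN and in oligodendrocytes and 7 of 8 in D2-MSN, with medians of 0.17, 0.13 and 0.08 against 0.00, 0.01 and 0.00 over all genes. Of the Hsp70 and Hsp90 cochaperones, 24 of the 26 listed (25 had a row in the files) were tested in D1-MSN and in D2-MSN and 0 were called, with medians of 0.05 and 0.10. The heat shock factor list had 0 of 4 tested called in D1-MSN and in D2-MSN, with medians of -0.03 and -0.05. The ER folding and unfolded protein response list had 0 of 19 called in D1-MSN and in D2-MSN (medians 0.02 and -0.06), and the clathrin and synaptic vesicle partners of Dnajc6 and Dnajc5 had 0 of 9 (medians 0.09 and 0.00).

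In astrocytes 2 partners were called. Fkbp5, an Hsp90 cochaperone of steroid receptors known for its induction by glucocorticoids, had 198 and 90.9 CPM in saline and 275 and 225 CPM in cocaine (log2 fold change 0.82, SE 0.14). Its groups did not overlap, but the call was lost without the male saline library (log2 fold change 0.34; edgeR adjusted p = 0.843), without the female cocaine library (0.62; 0.572), without the male cocaine library (0.91; 0.129), with the stricter gate, without the sex covariate and with DESeq2. Without the female saline library it was 1.47. Sh3gl2, an endophilin of clathrin uncoating, had 233 and 206 CPM in saline and 135 and 154 CPM in cocaine (log2 fold change -0.61, SE 0.14; edgeR adjusted p = 0.00141), and its call was lost without any 1 library (adjusted p from 0.138 to 0.664), with the stricter gate, without the sex covariate and with DESeq2. MSN markers in astrocyte nuclei summed to 472 and 414 CPM in saline and to 916 and 731 CPM in cocaine. Of 14 lists of other cell types, 5 were higher in both cocaine libraries and 0 were lower, and their part in these values was not tested.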

How the data were processed

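Single-nucleus RNA was read with the 10x Genomics 3′ chemistry. The deposited UMI counts per gene and nucleus are raw whole-number counts made with Cell Ranger 6.1.2 on build rn7, per the file headers and the submitters' processing notes. A floor of 200 detected genes and a ceiling of 5% mitochondrial UMIs removed 4 nuclei. Gate limits were set on marker counts alone, and 539 nuclei that met 2 or more gates were left out as possible doublets; no doublet caller was run, and 5433 nuclei met no gate. UMIs were summed per library and class and tested with edgeR 4.0.16 (R 4.3.3; TMM scaling, filterByExpr, quasi-likelihood test with sex and treatment, or with library as a block between classes), with Benjamini-Hochberg adjustment over all genes tested and a threshold of 0.05. The SE is the log2 fold change divided by the root of F. DESeq2 1.42.0 and other scalings, filters and gates were alternatives. The tests were run first on simulated data. Nothing in the labels says that a library holds other than 1 pool of rats, so p-values measure the spread between pools. Counting UMIs at the 3′ end gives no comparison of level between genes, and reads of near-identical or overlapping genes cannot be told apart.

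The members and lists were chosen with earlier results of these data known. Genes were named by rule: members called in any class, a list of 25 well-known members, the largest called differences of each class, the smallest p-values in D1-MSN, and called genes of the partner lists. No genome was used. Promoter sequences were copied from a RefSeq table.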

Additional observations from a re-analysis of the deposited data

Results flagged for a closer look

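In 2 members of the ER group the female and the male libraries moved in opposite directions, each beyond the 95% counting interval of its ratio, among 70 gene and class pairs examined in D1-MSN, D2-MSN and all nuclei. Over all nuclei Hsp90b1 had 64.0 CPM in the female saline and 49.8 CPM in the female cocaine library, a log2 ratio of -0.38, and 54.2 and 59.3 CPM in the male libraries, a log2 ratio of 0.17. Hspa5 had 42.0 and 37.6 CPM in the female libraries, a log2 ratio of -0.18, and 41.8 and 50.0 CPM in the male libraries, a log2 ratio of 0.30. The difference between the sexes was not tested, since each sex has 1 library per treatment.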

How the results depend on the processing

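In D2-MSN the count of 4 called members became 2 without the low-count filter, 2 with the top 5% of nuclei by UMIs left out, and 0 with DESeq2, with no sex covariate, with nuclei in 2 gates kept, and with any 1 library left out (0 to 0). Over all genes in D2-MSN 142 were called, 16 with nuclei in 2 gates kept and 1 with DESeq2, and 1 to 7 with a library left out. In oligodendrocytes the count of 0 became 1 without the low-count filter and 1 with the stricter gate (Hsp90aa1 in both). Over all genes there, 22 were called, 240 without the filter and 84 with the stricter gate. Over all nuclei the count of 0 members became 2 without the low-count filter, where calls over all genes went from 57 to 325. With the summed counts thinned to 204189 UMIs, members called between classes fell from 31 to 9 in astrocytes, 36 to 8 in D1-MSN, 34 to 13 in D2-MSN, 23 to 13 in glutamatergic neurons, 27 to 6 in Grm8 MSN, 32 to 21 in microglia, 26 to 11 in OPC and 44 to 18 in oligodendrocytes. The cocaine difference in the summed member level was 1.02 UMIs per 10000 in Grm8 MSN and 1.41 with the stricter gate, an alternative chosen after seeing the data. Over all nuclei the log2 fold change of Hspa5, 0.05, ran from -0.157 to 0.252 with a library left out, and that of Hsp90b1, -0.12, from -0.247 to 0.0092, changing sign without either female library; the cause was not tested. The stricter gate and the removal of top nuclei left too few glutamatergic neurons for a value. Under the alternatives 243 other summary values and 511 gene values kept their direction and side of the threshold, while 52 gene values lost a call, 5 gained one and 3 changed sign. The labels carry no replicate numbers, and the fits pair the libraries by sex, as a covariate.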

Other observations

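A few members lay lower after cocaine in several classes without being called in any. Both cocaine libraries lay below both saline libraries in 5 of 7 classes tested for Dnajc11, a mitochondrial DnaJ protein of the inner membrane organising system. This held in 5 of 9 for Dnajc7, a DnaJ protein that binds Hsp70 and Hsp90. No member had more such classes. In any single class 16.1% to 17.8% of all genes lay lower in this way. The share of all genes lower in 5 or more classes was not counted, and the classes are not independent. Dnajc11 had log2 fold changes from -0.45 to -0.10 over its 7 classes. In D2-MSN it stood at 41.8 and 36.1 CPM in the female and male saline libraries and at 34.2 and 35.1 CPM in the cocaine libraries (log2 fold change -0.17, SE 0.11; edgeR adjusted p = 0.651).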
